A study of Mus musculus with 79 samples.

Results

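The genes described here encode subunits of voltage-gated calcium channels: the alpha2delta subunits Cacna2d1, Cacna2d2 and Cacna2d3, the pore-forming alpha1 subunits Cacna1a, Cacna1b, Cacna1c, Cacna1e and Cacna1h, and the beta subunits Cacnb3 and Cacnb4. They were chosen by symbol, 10 of the 24033 gene symbols used in the deposited count table, and were followed over 7 time groups in 2 RNA fractions. All 10 passed the filter on low counts in both fractions, and 0 of the 79 libraries lacked a count for any of them.

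Voltage-gated calcium channels open on depolarisation and let calcium into the cell, where it drives transmitter release, excitability and transcription. An alpha1 subunit forms the pore and sets the channel type, a cytosolic beta subunit helps to bring the pore to the plasma membrane and shapes its gating, and an extracellular alpha2delta subunit raises channel abundance at the membrane and at terminals. In dorsal root ganglia, which hold the cell bodies of sensory neurons, alpha2delta-1 is the binding site of gabapentin and pregabalin and is known for its rise after injury of peripheral nerve in rodents.

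BAC-TRAP mice of line BR145-GFP had their sciatic nerves crushed, and L4-5 dorsal root ganglia were collected 1 h, 12 h, 24 h, 48 h, 72 h or 7 d later, with naive mice for comparison. Each time had pulled-down RNA (IP, bound by chicken anti-GFP on magnetic beads) and total RNA of the ganglion (Input). Each fraction had 7 naive libraries, and the injured groups held 5 libraries (1 h), 6 (12 h), 4 IP and 5 Input (24 h), 6 (48 h), 7 (72 h) and 4 (7 d). All mice carried the BR145-GFP transgene, and the cells in which it is active, the age and sex of the mice and whether a library is 1 animal or a pool are not given by the sources at hand, so p-values measure the spread between libraries.

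IP libraries held 3614942 to 16721527 gene counts, and Input libraries held 8737964 to 22221882. Ribosomal transcripts (Rn45s and Lars2) took 1.37% to 75.1% of the counts of an IP library and 1.64% to 25.5% of those of an Input library, and 6 IP libraries were above 50%. All libraries of 12 h had more counts of Y-linked Ddx3y than of Xist, and all libraries of 48 h had the reverse. The injury genes Atf3, Gal, Npy and Sprr1a checked the labels, and 4 of 4 rose at 24 h and at 7 d in both fractions. Of all genes 1.9% (24 h) and 13.1% (7 d) rose in IP, and 7.26% and 29.7% rose in Input. Atf3 rose at 7 d by 5.95 in IP and by 5.53 in Input on the log2 scale. In the pulldown of naive mice, 8 of 12 neuron markers were below their Input level and 2 were above it (median log2 difference -0.51). Of all genes 19.2% were below and 27.6% above in the same comparison. 0 of these 12 markers were at 0 in any group.

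Levels below are CPM (reads scaled to a common library total) with the library size scaled by TMM, so they compare 1 gene across libraries and not genes with each other. Changes are log2 differences with their standard error (SE) from edgeR's quasi-likelihood test, and adjusted p-values are over all genes of the fit, with 0.05 as threshold. All times were compared with the same naive libraries of their fraction, so the changes at the 6 times share these libraries. Whether groups overlap is given as a description of single genes, without the share of all genes whose groups separate. In bulk RNA, fewer cells of a type and less RNA per cell cannot be told apart.

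Cacna2d1 encodes alpha2delta-1 and lies at chr5:15934264-16374511 (GRCm38.p6). It rose in the pulldown from 24 h on and in the whole ganglion most clearly from 48 h on, and at 72 h and 7 d its rises were the largest among the 10 genes in both fractions. In IP its mean level was 109 ± 15.0 CPM in naive libraries (SD, n = 7), and then, by time after crush, 121 ± 32.0 (1 h, n = 5), 136 ± 31.3 (12 h, n = 6), 239 ± 27.6 (24 h, n = 4), 394 ± 136 (48 h, n = 6), 469 ± 125 (72 h, n = 7) and 372 ± 120 CPM (7 d, n = 4). The lowest, median and highest libraries had 84.9, 109 and 128 CPM in naive IP, 250, 386 and 644 CPM at 48 h and 322, 411 and 649 CPM at 72 h. The 4 libraries of 24 h had 256, 266, 205 and 229 CPM, and the 4 of 7 d had 255, 385, 533 and 315 CPM. Every IP library of 24 h, 48 h, 72 h and 7 d was above every naive IP library, and the libraries of 48 h to 7 d were also widely spread among themselves.

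In IP the change of Cacna2d1 was 1.11 ± 0.20 at 24 h (adjusted p = 0.000411), a 2.16-fold rise. It was 1.83 ± 0.19 at 48 h (adjusted p = 3.76e-10), 2.06 ± 0.18 at 72 h (adjusted p = 5.05e-12) and 1.71 ± 0.20 at 7 d (adjusted p = 1.19e-08). These are 3.56-fold, 4.18-fold and 3.26-fold rises. At 1 h and 12 h the changes of 0.19 ± 0.20 and 0.36 ± 0.19 did not pass (adjusted p = 0.693 and 0.36). No step between neighbouring times passed in IP: 24 h minus 12 h was 0.74 ± 0.21 (adjusted p = 0.138), 48 h minus 24 h was 0.72 ± 0.22 (adjusted p = 0.288), 72 h minus 48 h was 0.23 ± 0.18 and 7 d minus 72 h was -0.36 ± 0.21 (adjusted p = 0.218).

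In Input, Cacna2d1 had a mean of 62.7 ± 14.4 CPM in naive libraries (n = 7), followed by 48.7 ± 11.9 (1 h, n = 5), 77.6 ± 29.7 (12 h, n = 6), 93.6 ± 23.4 (24 h, n = 5), 154 ± 23.5 (48 h, n = 6), 244 ± 44.4 (72 h, n = 7) and 293 ± 30.2 CPM (7 d, n = 4). The naive libraries ran from 45.2 over a median of 60.9 to 82.6 CPM, those of 72 h from 205 over 235 to 322 CPM, and those of 7 d had 258, 288, 332 and 292 CPM. All Input libraries of 48 h, 72 h and 7 d were above all naive ones, whereas 24 h (71.4 to 125 CPM) overlapped with naive. The change was 1.31 ± 0.18 at 48 h (adjusted p = 2.38e-07), 1.97 ± 0.18 at 72 h (adjusted p = 7.01e-12) and 2.26 ± 0.20 at 7 d (adjusted p = 9.92e-13). At 24 h the change of 0.58 ± 0.19 passed narrowly (adjusted p = 0.0381), and it was lost when any of 7 libraries was left out (adjusted p from 0.0219 to 0.147 over 40 such fits, and up to 0.0563 over the other settings). At 1 h and 12 h the Input changes of -0.37 ± 0.19 and 0.30 ± 0.18 did not pass.

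The rise in Input still grew between neighbouring times, by 0.73 ± 0.20 from 24 h to 48 h (adjusted p = 0.0182) and by 0.66 ± 0.18 from 48 h to 72 h (adjusted p = 0.0105), while 7 d minus 72 h was 0.30 ± 0.20 (adjusted p = 0.208). In IP the mean was highest at 72 h, and in Input at 7 d. Cacna2d1 was higher in IP than in Input at every time up to 72 h, by 0.80 ± 0.19 in naive libraries (adjusted p = 0.000311) and by 1.36 ± 0.20 at 48 h (adjusted p = 6.22e-08), and at 7 d the difference of 0.35 ± 0.24 did not pass (adjusted p = 0.346). The F-test of all 6 differences between the IP and Input changes of Cacna2d1 did not pass either (F = 2.85, adjusted p = 0.0847). It passed with another scaling (RLE, adjusted p = 0.0233), in DESeq2 (adjusted p = 0.0120), without the 6 IP libraries of mostly rRNA (adjusted p = 0.0168) and without replicate 3 (adjusted p = 0.0315), and over all settings its adjusted p ran from 0.0120 to 0.294.

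Markers of several cell types moved beside Cacna2d1. In IP at 24 h 4 of 10 Schwann and myelin markers were lower and 0 higher, with summed levels of 2224 to 2643 CPM, against 3149 to 9037 CPM in naive IP. Of all genes 1.9% rose in IP at 24 h, and the share that fell is not given here. In Input at 72 h the neuron markers summed to 16246 to 17762 CPM, against 12225 to 15020 CPM in naive Input, although 3 of the 12 were higher and 5 lower (12.7% and 11.5% of all genes). Of 11 macrophage markers 9 were higher and 0 lower in Input at 72 h, with sums of 609 to 982 CPM, against 391 to 863 CPM in naive Input. With the neuron markers, the myelin markers or the rRNA share as a covariate the IP change of Cacna2d1 was 0.89 to 1.06 at 24 h and 1.40 to 1.65 at 7 d, and the Input change was 1.35 to 1.66 at 48 h, 1.94 to 2.08 at 72 h and 2.17 to 3.10 at 7 d. All of these passed, with the highest adjusted p (0.0274) for the myelin markers in IP at 24 h. The covariates come from the same libraries and can move with the group, so these fits do not test the part of a cell type. The part of macrophages and of fibroblasts was not tested either, and satellite glia are given with Cacna2d3 and Cacna1h.

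**Figure D1:**
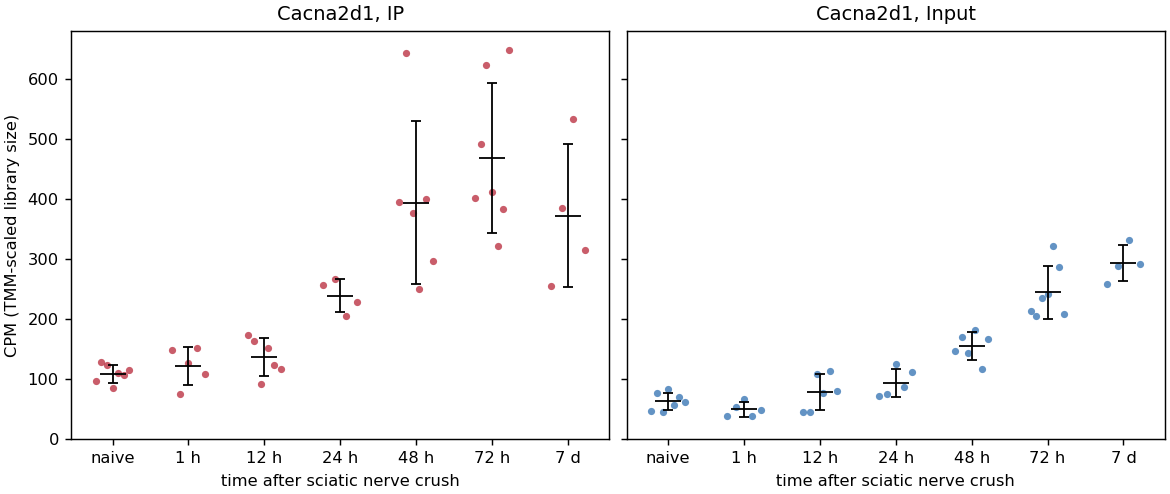
Cacna2d1 in CPM (linear axis) in every IP library (left) and every Input library (right) by time after crush; points are libraries and bars are the mean and SD. The IP libraries from 24 h on lie above the naive range of 84.9 to 128 CPM, and the Input libraries from 48 h on lie above the naive range of 45.2 to 82.6 CPM.

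The promoter of Cacna2d1 is shown because this gene moved most. The set of promoters used here (GRCm38.p6) gives 1 start for it. The 300 bases from 250 before to 50 after that start lie at chr5:15934441-15934740 on the plus strand. The gene span given above begins further upstream, at 15934264, so the window lies inside the span. Capitals mark GC boxes (GGGCGG on either strand, matches that overlap counted separately) and the short CRE core (TGACG on either strand).
Cacna2d1: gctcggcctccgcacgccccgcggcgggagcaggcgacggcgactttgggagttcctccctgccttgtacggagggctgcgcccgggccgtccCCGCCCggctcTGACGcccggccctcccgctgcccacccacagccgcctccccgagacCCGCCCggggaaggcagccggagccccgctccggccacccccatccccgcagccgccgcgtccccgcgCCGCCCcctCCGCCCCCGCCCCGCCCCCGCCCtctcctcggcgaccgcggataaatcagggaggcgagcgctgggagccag
The window held 7 GC boxes and 1 CRE core. Of 32851 mouse promoters of this length 35.7% held a GC box and 20.8% the CRE core. Promoters were matched for 8 of the 10 genes, 13 windows in all, and GC boxes were in 8 of the 13. The AP-1 motif TGANTCA, which 7.81% of all promoters held, the full CRE TGACGTCA (1.79%) and TATAAA (13.6%) were in 0 of the 13, which says only that these letters are not in these windows.

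Cacna2d2 encodes alpha2delta-2, known for its role in the cerebellum, and was low in these ganglia, with 4 to 297 counts per library. It fell in the whole ganglion at 48 h, where its libraries had 2.31, 1.43, 0.959, 1.16, 2.15 and 1.51 CPM, against 1.58 to 6.37 CPM in naive Input (median 4.88). 1 naive library, at 1.58 CPM, lay within the range of 48 h, and the change was -1.39 ± 0.33 (adjusted p = 0.00078). In IP at 48 h the change of -0.82 ± 0.34 did not pass (adjusted p = 0.214), with 6.02 ± 3.57 CPM at 48 h (n = 6) and 11.1 ± 2.17 CPM in naive IP (n = 7). In Input it had a mean of 2.39 ± 1.07 CPM at 24 h (n = 5) and 2.76 ± 1.49 CPM at 72 h (n = 7), against 4.38 ± 1.67 CPM in naive Input (n = 7). These changes of -0.86 ± 0.33 at 24 h (adjusted p = 0.0846) and -0.70 ± 0.31 at 72 h (adjusted p = 0.0927) did not pass, but 3 of 40 fits that left out 1 library called the first (adjusted p from 0.0198 to 0.22) and 2 of 40 the second (0.0224 to 0.247). Both passed without naive Input replicate 3. By 7 d Cacna2d2 was at 3.91 ± 0.433 CPM in Input (n = 4), a change of -0.08 ± 0.31.

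Cacna2d3 encodes alpha2delta-3, which in mice and flies has been linked to heat nociception. It rose in the whole ganglion at 7 d, where the libraries had 55.1, 59.5, 57.7 and 66.0 CPM, against 27.2 to 37.5 CPM in naive Input (median 34.4). The groups did not overlap, and the change was 0.87 ± 0.12 (adjusted p = 2.6e-08). The step of 7 d minus 72 h was 0.71 ± 0.12 (adjusted p = 1.73e-06), and no earlier time passed. In IP the libraries of 7 d had 43.9, 50.2, 61.6 and 92.8 CPM, against 41.7 to 63.0 CPM in naive IP, and the change of 0.22 ± 0.23 did not pass (adjusted p = 0.487). Whether the fractions differed in this response was tested too: the IP change minus the Input change at 7 d was -0.55 ± 0.25 (adjusted p = 0.131).

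Among the alpha1 subunits, the genes for the P/Q-type pore (Cacna1a), the N-type pore (Cacna1b), an L-type pore (Cacna1c) and the R-type pore (Cacna1e) fell in Input at 48 h, and the T-type Cacna1h rose in Input at 7 d. P/Q- and N-type channels carry most of the calcium that triggers release at fast synapses. At 48 h the Input libraries of Cacna1a had 13.8 to 28.5 CPM (median 20.6), against 22.6 to 37.8 CPM in naive Input (median 28.9). Its change was -0.54 ± 0.17 (adjusted p = 0.0115), with groups that overlapped. Cacna1b had 14.4 to 29.7 CPM at 48 h (median 22.8), against 19.3 to 48.5 CPM in naive Input (median 36.6). Its change of -0.60 ± 0.23 (adjusted p = 0.0354) was lost when any of 7 libraries was left out (adjusted p up to 0.102). Cacna1b then stood at 38.2 ± 10.3 CPM at 72 h (n = 7), and 72 h minus 48 h was 0.72 ± 0.23 (adjusted p = 0.0275).

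Cacna1c, the L-type pore that also couples calcium entry to transcription, had 5.83 to 11.8 CPM in Input at 48 h (median 9.71), against 11.3 to 15.2 CPM in naive Input (median 13.5). Its change was -0.49 ± 0.16 (adjusted p = 0.0166), and without Input replicate 5 of 48 h, the lowest library, adjusted p was 0.0682. Cacna1e was scarce, with 0.183 to 0.812 CPM in Input at 48 h (median 0.494) and 0.204 to 2.61 CPM in naive Input (median 1.87). Its Input change of -1.52 ± 0.59 (adjusted p = 0.039) was lost in 9 of 40 fits that left out 1 library (adjusted p up to 0.0883). In IP, Cacna1e had 2.50, 2.58, 4.17 and 7.69 CPM at 7 d, against 3.20 to 26.2 CPM in naive IP (median 10.7), and the groups overlapped. That change was -1.65 ± 0.64 (adjusted p = 0.0486), it was lost in 26 of 39 such fits, and it was 0.61 (adjusted p = 0.625) with the rRNA share as a covariate, so its direction depends on the fit.

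Beside the falls of Cacna1a, Cacna1b, Cacna1c and Cacna1e at 48 h in Input, 5 of 12 neuron markers were lower and 3 higher (18.9% and 18.4% of all genes), with summed levels of 13257 to 15114 CPM at 48 h and 12225 to 15020 CPM in naive Input. With the mean of these markers as a covariate, chosen after seeing the data, the 4 changes were -0.33, -0.26, -0.32 and -0.71, and none of the 4 passed (adjusted p from 0.173 to 0.437). With the rRNA share as a covariate, also chosen later, they were -0.27, -0.13, -0.33 and -0.75 and did not pass (adjusted p from 0.0827 to 0.443). 0 of 6 Input libraries of 48 h had more Ddx3y than Xist, against 2 of 7 naive ones, and with that contrast as a covariate Cacna1e no longer passed (adjusted p = 0.0901) while Cacna1a, Cacna1b and Cacna1c did. In IP at 48 h Cacna1a had 85.4 ± 20.9 CPM (n = 6), against 80.3 ± 6.91 CPM in naive IP (n = 7). Cacna1b had 98.7 ± 34.8 against 71.8 ± 15.7 CPM, and Cacna1c had 28.3 ± 6.84 against 26.9 ± 6.14 CPM. Cacna1e had 8.57 ± 7.27 against 13.0 ± 7.96 CPM. None of these 4 changes passed in IP at 48 h. The IP change minus the Input change at 48 h passed for 0 of the 10 genes, with 3 at an unadjusted p under 0.05. The share of all genes that passed is not given here, so the 0 does not show that the fractions responded alike.

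Cacna1h, the T-type pore that opens near resting potential and is known for its role in nociceptors, had 14.1, 14.5, 11.3 and 15.9 CPM in Input at 7 d, against 7.35 to 13.0 CPM in naive Input (median 9.75). The groups overlapped in 1 library, and the change was 0.54 ± 0.19 (adjusted p = 0.0164). It was lost without Input replicate 4 of 7 d (adjusted p = 0.0601), and 7 d minus 72 h was 0.63 ± 0.19 (adjusted p = 0.00515). In IP the 7 d libraries had 20.4, 10.1, 9.91 and 35.4 CPM, and the change of 0.26 ± 0.32 did not pass (adjusted p = 0.555).

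Satellite glia markers moved with the 7 d rises of Cacna2d1, Cacna2d3 and Cacna1h in Input. Of 8 such markers 5 were higher and 1 lower at 7 d (29.7% and 26.4% of all genes), and their summed level was 5993 to 7504 CPM at 7 d, against 2609 to 3515 CPM in naive Input, with 0 of the 8 at 0. The summed neuron markers were 12408 to 15215 CPM at 7 d, against 12225 to 15020 CPM in naive Input. The part of satellite glia in these rises was not tested.

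Cacnb3 encodes beta3, a beta subunit associated with N-type channels, and lies at chr15:98628436-98644536 (GRCm38.p6). It rose in the pulldown at 7 d alone among the 6 times. The 4 IP libraries of 7 d had 253, 192, 240 and 254 CPM, against 50.9 to 112 CPM in naive IP (median 79.8), and the groups did not overlap. The means of the other injured IP groups lay between 90.6 and 130 CPM. The change at 7 d was 1.45 ± 0.22 (adjusted p = 2.79e-06), a 2.73-fold rise, and 7 d minus 72 h was 1.35 ± 0.22 (adjusted p = 4.38e-05).

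In Input, Cacnb3 had 279, 256, 238 and 243 CPM at 7 d, against 133 to 296 CPM in naive Input (median 164), and the 7 d libraries lay inside the naive range. The Input change at 7 d of 0.44 ± 0.21 did not pass (adjusted p = 0.0639). It passed in voom (0.48, adjusted p = 0.0470), with the myelin markers as a covariate (0.54, adjusted p = 0.0434) and in a fit of 7 d and naive alone (0.40, adjusted p = 0.0473), and it was -0.41 with the rRNA share as a covariate (adjusted p = 0.00653), so the Input direction at 7 d depends on the fit. It also passed without Input replicate 5 of 12 h or replicate 3 of naive Input (adjusted p from 0.0121 to 0.144 over 40 such fits). The IP change exceeded the Input change at 7 d by 1.10 ± 0.33 (adjusted p = 0.0145), in which 15.2% of all genes passed. This difference was 0.95 to 1.31 when 1 replicate number was left out, and it did not pass without replicate 1 or without replicate 4 (adjusted p from 0.0109 to 0.0914). With the myelin markers as a covariate it was 1.00 and did not pass either (adjusted p = 0.0505). Cacnb3 was lower in IP than in Input in naive libraries, with a log2 difference of -1.21 ± 0.20 (adjusted p = 9.66e-07), and at 7 d the difference was -0.11 ± 0.26 (adjusted p = 0.817).

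The rRNA share differed along with the IP rise of Cacnb3: it was 4.14 ± 2.99% in IP at 7 d (n = 4) and 27.3 ± 11.7% in naive IP (n = 7). With that share as a covariate, chosen after seeing the data, the IP change of Cacnb3 at 7 d was 1.03 and passed (adjusted p = 0.00229), and over the 12 alternatives it was 1.03 to 1.51 with adjusted p from 3.04e-08 to 0.00229. Neuron markers summed to 10728 to 14943 CPM in IP at 7 d, against 6506 to 10658 CPM in naive IP, where 4 of 12 were higher and 0 lower at 7 d. With the mean log2 CPM of these markers as a covariate, also chosen later, the change was 1.17 (adjusted p = 5.88e-05). Schwann and myelin markers summed to 2217 to 3083 CPM in IP at 7 d, against 3149 to 9037 CPM in naive IP, with 4 of 10 lower and 0 higher, and with them as a covariate the change was 1.42 (adjusted p = 1.29e-05). Satellite glia markers summed to 3117 to 4005 CPM in IP at 7 d, against 1323 to 2574 CPM in naive IP, with 3 of 8 higher and 2 lower, and their part was not tested. Of all genes 13.1% were higher and 15.3% lower in IP at 7 d.

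The promoter of Cacnb3 is shown beside that of Cacna2d1 as the other gene that rose by more than 1 on the log2 scale in IP. The same set gives 2 starts for it, and the upstream one gives the window chr15:98632078-98632377 on the plus strand. Its gene span begins further upstream, at 98628436, so this window too lies inside the span. Capitals mark the GC box.
Cacnb3: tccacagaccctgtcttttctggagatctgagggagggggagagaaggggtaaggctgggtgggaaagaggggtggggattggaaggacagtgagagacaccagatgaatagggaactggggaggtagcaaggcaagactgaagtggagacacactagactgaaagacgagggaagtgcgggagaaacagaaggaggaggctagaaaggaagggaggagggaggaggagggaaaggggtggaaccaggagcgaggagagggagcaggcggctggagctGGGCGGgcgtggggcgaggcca
It held 1 GC box and 0 CRE cores, against 7 and 1 in Cacna2d1, and 59.7% of its bases were G or C, against 80% in Cacna2d1. The window at its downstream start held 4 GC boxes.

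Cacnb4 encodes beta4, the beta subunit that pairs mainly with P/Q-type pores in the brain, and lies at chr2:52428320-52676609 (GRCm38.p6). It fell in both fractions late after crush. In Input it had a mean of 92.4 ± 10.6 CPM in naive libraries (n = 7), followed late by 66.0 ± 7.97 (48 h, n = 6), 59.1 ± 4.80 (72 h, n = 7) and 59.4 ± 8.21 CPM (7 d, n = 4). The naive libraries had 76.1 to 105 CPM, those of 72 h had 52.4 to 65.2 CPM and those of 7 d had 71.0, 57.9, 51.6 and 57.1 CPM. Neither 72 h nor 7 d overlapped with naive. The changes were -0.48 ± 0.11 at 48 h (adjusted p = 0.000808), -0.65 ± 0.11 at 72 h (adjusted p = 1.11e-05) and -0.61 ± 0.13 at 7 d (adjusted p = 0.000105).

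The fall of Cacnb4 in Input lay between 24 h and 48 h, where the step was -0.61 ± 0.12 (adjusted p = 0.00103), and no later step passed. A rise of 0.37 ± 0.11 at 12 h in Input (adjusted p = 0.0425) was lost in 10 of 40 fits that left out 1 library (adjusted p from 0.0294 to 0.113), and with the Ddx3y and Xist contrast as a covariate it was 0.24 (adjusted p = 0.436). In IP, Cacnb4 had 53.1, 58.4, 77.8 and 41.6 CPM at 7 d, against 70.2 to 125 CPM in naive IP (median 85.6), and 1 library of 7 d lay inside the naive range. The change was -0.79 ± 0.23 (adjusted p = 0.00857), and without IP replicate 4 of 7 d adjusted p was 0.0556. At 72 h in IP the change of -0.54 ± 0.19 did not pass (adjusted p = 0.121), though it did in DESeq2 (-0.57, adjusted p = 0.0286), and over all settings but leaving out a library its adjusted p ran from 0.00363 to 0.177. The IP and Input changes at 7 d differed by -0.10 ± 0.27 (adjusted p = 0.899).

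**Figure D2:**
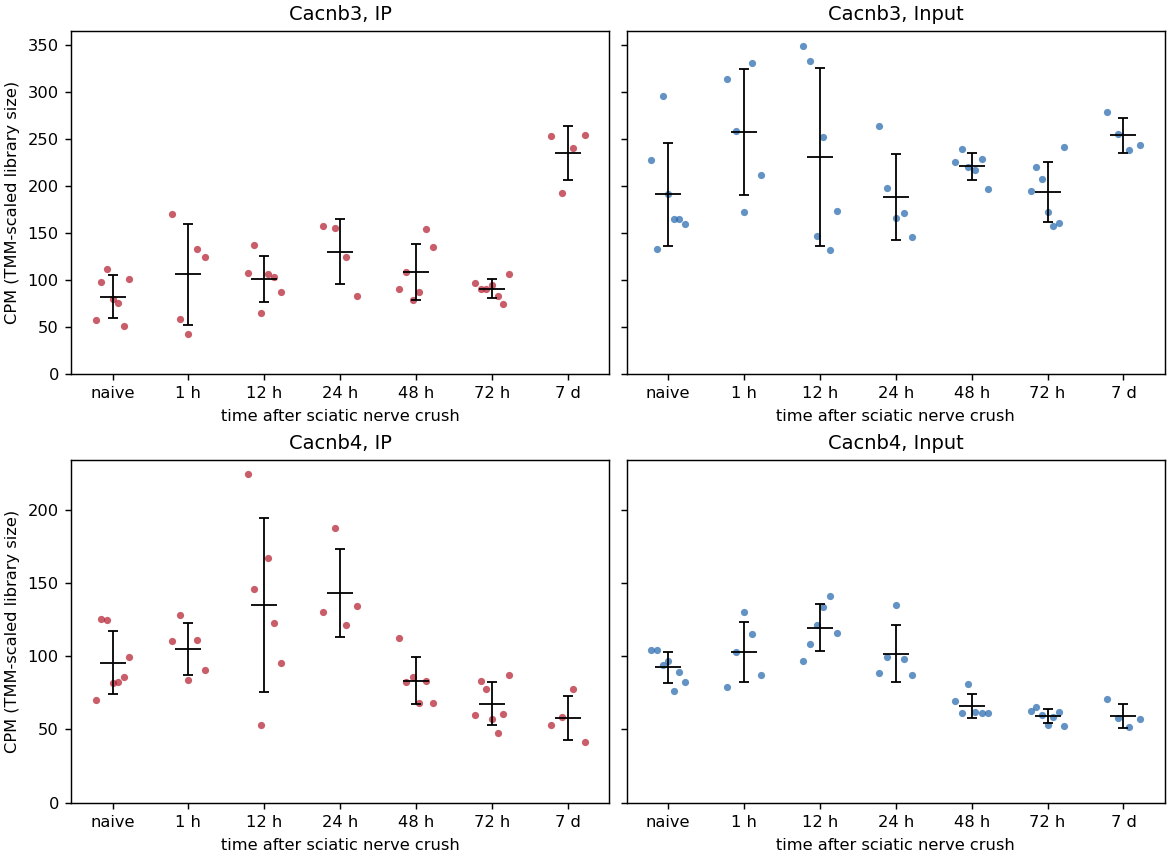
CPM (linear axis) of Cacnb3 (top) and Cacnb4 (bottom) in every IP library (left) and Input library (right) by time after crush; points are libraries and bars are the mean and SD. The 4 IP libraries of 7 d reach 192 to 254 CPM for Cacnb3, above the naive range of 50.9 to 112 CPM, and Cacnb4 in Input lies at 51.6 to 71.0 CPM at 7 d, below the naive range of 76.1 to 105 CPM.

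Over the 6 times, 7 of 60 tests of these 10 genes passed in IP, 5 higher and 2 lower, and 15 of 60 in Input, 7 higher and 8 lower, by edgeR's quasi-likelihood test. In IP 1 of 10 genes rose at each of 24 h, 48 h and 72 h, Cacna2d1 each time, where 1.9%, 2.19% and 2.14% of all 18656 tested genes rose. At 7 d in IP 2 rose and 2 fell, where 13.1% of all genes rose and 15.3% fell. In Input 6 of 10 fell and 1 rose at 48 h, where 18.9% of all 16217 tested genes fell and 18.4% rose. At 7 d in Input 3 rose and 1 fell, where 29.7% of all genes rose and 26.4% fell, and at 72 h 1 rose and 1 fell (12.7% and 11.5% of all genes). At 12 h and at 24 h in Input 1 of 10 rose (3.05% and 7.26% of all genes). The median change of the 10 genes in Input at 48 h was -0.49, beside -0.03 over all genes tested, and in IP it was -0.01, beside -0.11.

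At 1 h 0 of 10 genes passed in either fraction, and at 12 h 0 of 10 in IP. At an unadjusted p under 0.05 there were 1 in IP and 2 in Input at 1 h and 1 in IP at 12 h, and DESeq2 and voom also called 0 in these 3 comparisons. In those comparisons 1.58%, 11.2% and 2.25% of all genes passed in either direction. The F-test of the 6 times together passed for 3 of 10 genes in IP (Cacna2d1, Cacnb3 and Cacnb4), where 29.9% of all genes passed, and for 8 of 10 in Input, where 73.2% passed. The exceptions in Input were Cacna1e (adjusted p = 0.100) and Cacnb3 (adjusted p = 0.119).

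**Figure D3:**
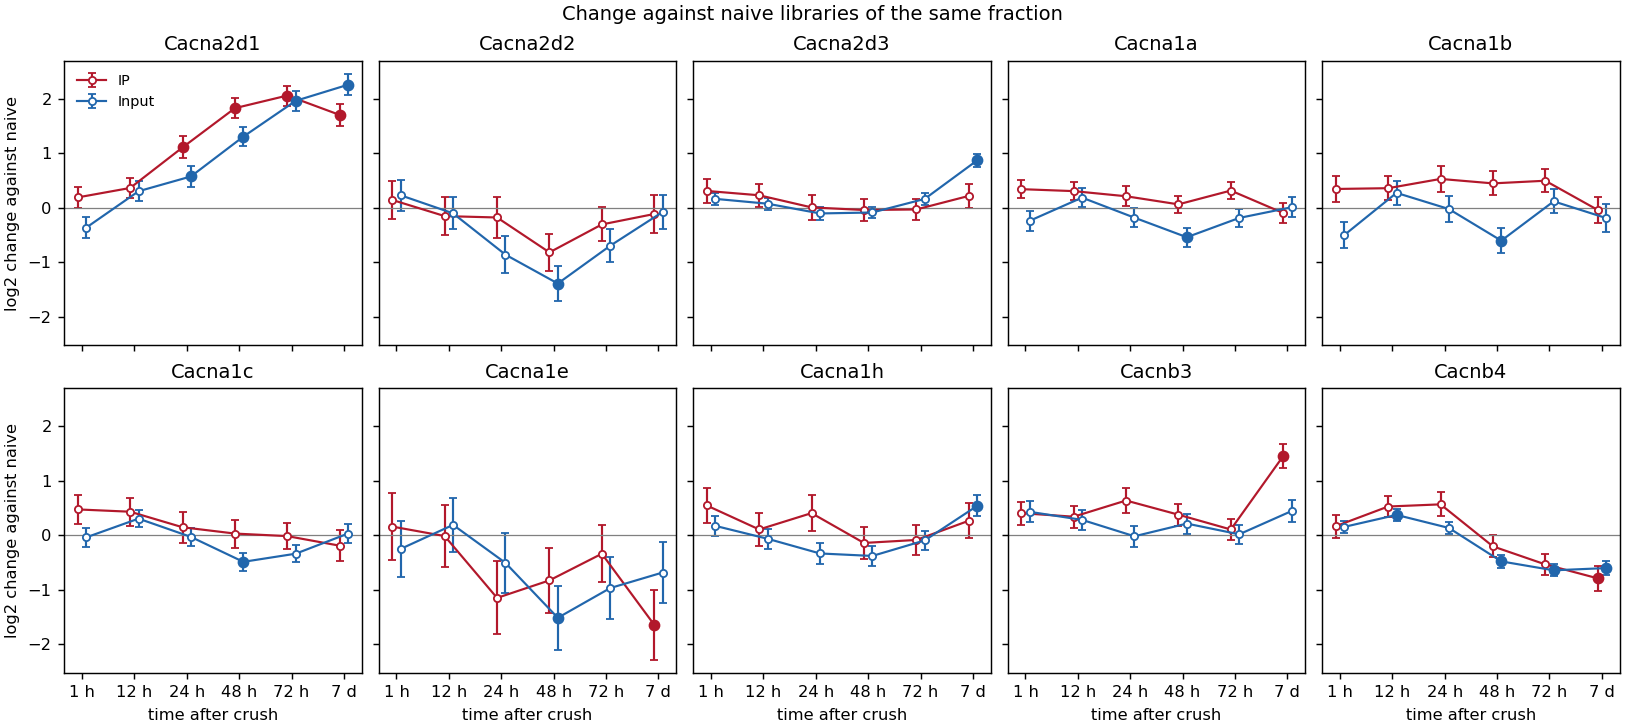
Log2 change against naive libraries of the same fraction for the 10 genes at 6 times after crush, in IP (red) and Input (blue); bars are the SE and filled points passed at an adjusted p of 0.05. Cacna2d1 reaches 2.06 in IP at 72 h and 2.26 in Input at 7 d, Cacnb3 reaches 1.45 in IP at 7 d, and 6 genes have filled points below 0 in Input at 48 h.

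Most of these genes were higher in the pulldown than in the whole ganglion. Of 70 comparisons of IP with Input (10 genes, 7 times) 58 passed, 53 higher and 5 lower in IP. Of all genes tested 35.9% (1 h), 47.7% (12 h), 32.6% (24 h), 44.6% (48 h) and 48.8% (72 h) passed in either direction. In naive libraries 8 of 10 were higher and 1, Cacnb3, was lower, where 27.6% of all 19584 tested genes were higher and 19.2% lower. The median difference of the 10 genes was 0.91 in naive libraries, beside 0.25 over all genes. Cacnb3 spans 16101 bases of the genome, and the others span 62050 (Cacna1h) to 817833 bases (Cacna2d3). The shares above are over genes of all lengths, and the part of gene length was not tested. Cacna1e differed most, with 13.0 ± 7.96 CPM in naive IP and 1.62 ± 0.848 CPM in naive Input (n = 7 each), a difference of 3.04 ± 0.52 (adjusted p = 2.0e-06). Cacna1a had 80.3 ± 6.91 CPM in naive IP and 30.4 ± 6.34 CPM in naive Input, a difference of 1.41 ± 0.16 (adjusted p = 1.24e-10), and it was higher in IP at all 7 times. Cacna2d2, Cacna1b, Cacna1c and Cacna1e were also higher at all 7 times. Leaving out 1 replicate number ended the 7 d calls of Cacna1c (replicate 1 or 4, adjusted p up to 0.0636) and Cacna1e (replicate 4, adjusted p up to 0.188). It also ended calls of Cacna1h in naive libraries (replicate 2, 3 or 6, adjusted p up to 0.124), at 12 h (replicate 2 or 6) and at 72 h (replicate 5 or 7, each up to 0.136), and of Cacna2d3 at 24 h (replicate 2, 0.0693) and 72 h (replicate 6, 0.0826).

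At 7 d 5 of 10 were higher in IP and 0 lower, where 10.7% of all genes were higher and 5.73% lower. Cacna2d1, Cacna2d3 and Cacna1h, which were higher in IP at the other 6 times, had differences of 0.35 ± 0.24, 0.06 ± 0.20 and 0.45 ± 0.29 at 7 d that did not pass. Cacnb4 passed at 0 of 7 times, and its largest difference was 0.50 ± 0.20 at 24 h (adjusted p = 0.0537). With RLE scaling Cacnb4 passed at 24 h (0.56, adjusted p = 0.0107) and at 48 h (0.46, adjusted p = 0.0117), and in DESeq2 it passed at the same times. Over the settings that kept all replicates its adjusted p ran from 0.00814 to 0.137 at 24 h and from 0.00618 to 0.2 at 48 h. The F-test of the 6 differences between IP and Input changes passed for 0 of 10 genes, where 12% of all genes passed, with 4 at an unadjusted p under 0.05, 3 in DESeq2 and 0 in voom.

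**Figure D4:**
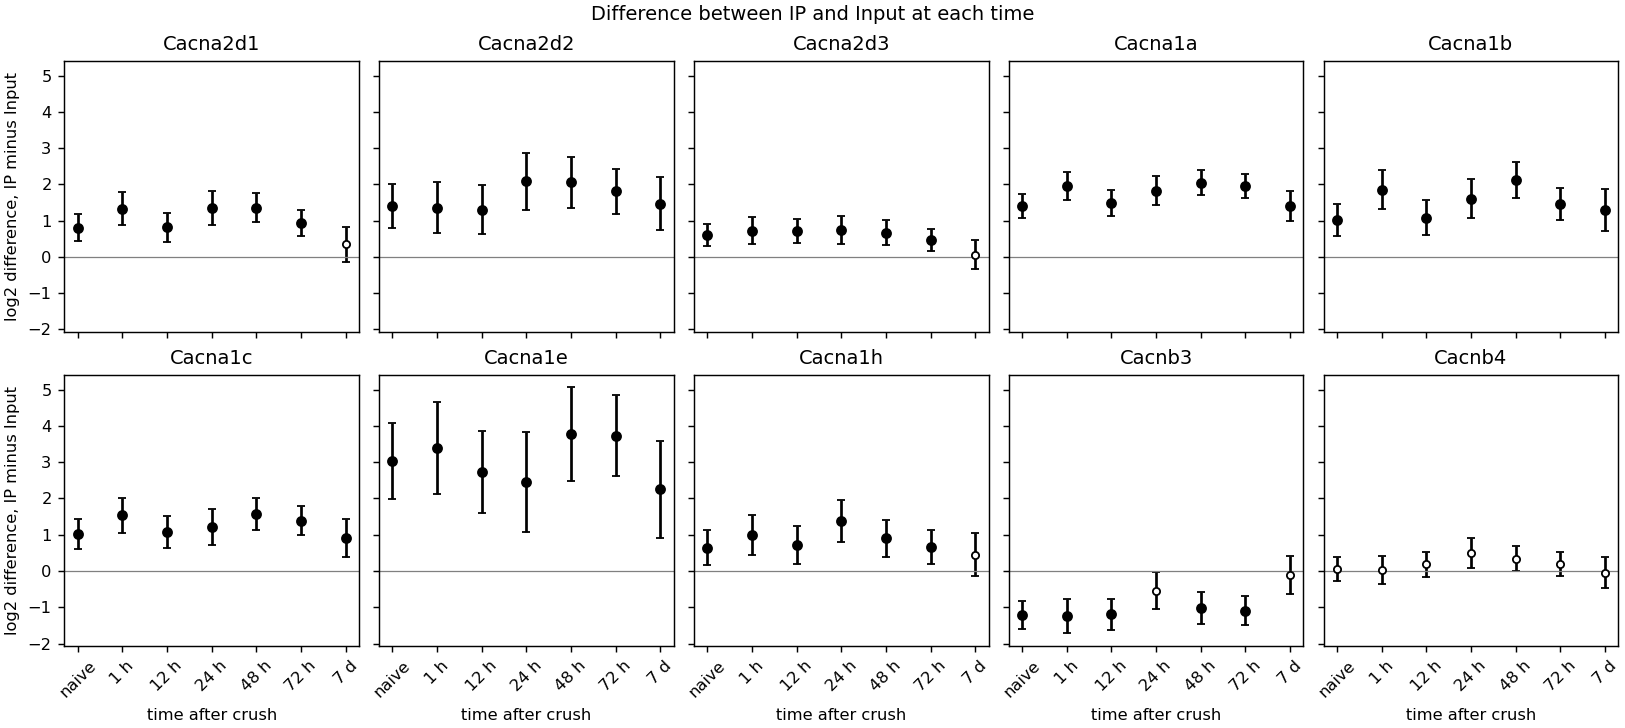
Log2 difference of IP minus Input for the 10 genes in naive libraries and at 6 times after crush; bars are the 95% interval and filled points passed at an adjusted p of 0.05. Cacnb3 lies below 0 at -1.21 in naive libraries and at -0.11 at 7 d, Cacnb4 lies between -0.04 and 0.50, and Cacna1e lies at 2.25 to 3.77.

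Other subunits of the family were followed as a list of 16 genes, of which 14 were tested in IP and 13 in Input. The F-test of the 6 times passed for 1 of 14 in IP, where 29.9% of all genes passed, and for 7 of 13 in Input, where 73.2% passed. Cacng5, which belongs to the gamma family whose members also act as AMPA receptor partners, rose by 2.53 ± 0.29 at 7 d in Input (adjusted p = 1.3e-09) and by 1.47 ± 0.49 at 7 d in IP (adjusted p = 0.0203). Cacng4 rose by 1.25 ± 0.36 and Cacnb1, a beta subunit known from skeletal muscle, by 0.62 ± 0.15 at 7 d in Input. Cacng2, known as stargazin, fell by 0.54 ± 0.22 at 48 h in Input. In Input 4 of 13 fell and 0 rose at 48 h (18.9% and 18.4% of all genes), and 4 rose and 2 fell at 7 d (29.7% and 26.4%).

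Of 11 ligands and partners reported for alpha2delta subunits, 8 of 11 passed the F-test of the 6 times in IP (29.9% of all genes) and 7 of 9 tested in Input (73.2% of all genes). Prnp, the prion protein, rose at 7 d by 0.71 ± 0.18 in IP and by 1.28 ± 0.12 in Input. Comp, a thrombospondin of the extracellular matrix, fell by 3.25 ± 0.51 in IP at 7 d and by 2.01 ± 0.27 in Input at 72 h. Grin1, the obligatory NMDA receptor subunit, fell in IP by 0.74 ± 0.21 at 48 h and by 0.64 ± 0.24 at 7 d, and in Input it fell by 0.94 ± 0.16 at 48 h and was 0.54 ± 0.17 higher at 7 d. At 7 d 1 of 11 rose and 6 fell in IP (13.1% and 15.3% of all genes), and 3 of 9 rose and 3 fell in Input (29.7% and 26.4%).

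Of 30 regulators and partners of the channels, 17 passed in IP (29.9% of all genes) and 28 in Input (73.2% of all genes). Stac, an adaptor that binds L-type channels, rose in IP by 1.41 ± 0.28 at 24 h and by 2.44 ± 0.28 at 7 d, and in Input by 1.10 ± 0.22 at 24 h and by 1.79 ± 0.23 at 7 d. Rims2, an active zone protein that binds beta subunits, fell at 7 d by 0.76 ± 0.24 in IP and by 0.62 ± 0.11 in Input. Camk2b, a calcium and calmodulin dependent kinase subunit, fell by 0.88 ± 0.26 in IP and by 1.11 ± 0.12 in Input at 48 h. Nedd4l, a ubiquitin ligase, fell by 0.65 ± 0.09 in Input at 48 h. At 7 d 7 of 30 rose and 7 fell in IP (13.1% and 15.3% of all genes), and 6 rose and 15 fell in Input (29.7% and 26.4%).

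Of 27 genes of calcium stores, pumps and exchangers, 5 of 27 passed in IP (29.9% of all genes) and 20 of 26 in Input (73.2% of all genes). Itpr1, a store release channel, rose in Input by 0.77 ± 0.20 at 24 h and by 2.10 ± 0.20 at 7 d. Stim2, a sensor of store calcium, rose by 1.41 ± 0.14 and Slc24a3, a sodium, potassium and calcium exchanger, by 1.30 ± 0.16 at 7 d in Input. Atp2b2, a plasma membrane calcium pump, fell in Input by 0.85 ± 0.12 at 48 h and was 0.68 ± 0.13 higher at 7 d. At 7 d 10 of 26 rose and 3 fell in Input (29.7% and 26.4% of all genes), and 1 of 27 rose and 5 fell in IP (13.1% and 15.3%). These lists are described by their counts alone, and the medians of all genes tested at 7 d were -0.18 in IP and 0.03 in Input.

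Likeness was measured as Pearson's r over the 12 log2 changes of a gene (6 times in IP and 6 in Input, which share their naive libraries), among 11528 genes with a mean of at least 5 CPM, as a description. The 5 genes most like Cacna2d1 were Gpr133 (r = 0.976), Abca1 (0.967), Plxna4 (0.966), Tubb2a (0.965) and Ptpro (0.955). Plxna4 is a semaphorin receptor, Tubb2a a beta tubulin, Abca1 a cholesterol transporter and Ptpro a receptor phosphatase. At 72 h in IP their changes were 3.06 for Gpr133, 1.81 for Abca1, 1.91 for Plxna4, 1.00 for Tubb2a and 1.69 for Ptpro, beside 2.06 for Cacna2d1. For Cacnb4 they were Gm20300 (0.967), Fmn1 (0.959), Plekhm3 (0.951), Strbp (0.949) and Prkg1 (0.946), of which Prkg1 is a cGMP dependent kinase and Fmn1 a formin.

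The deposited interval table counts reads in short genomic stretches, most of them named for a repeat element, and 38 of its intervals lay within the span of Cacna2d1. Of these, 34 had an element name and 20 could be tested in at least 1 fraction. Exons, the strand of the reads and the handling of reads that map to several places were not known here, and the gene Gm43000 lies within the same span. Apart from a pair of adjacent B2 intervals described below, of 17 tested intervals 7 (24 h), 11 (48 h), 12 (72 h) and 3 (7 d) were higher in IP, where 1.51%, 3.4%, 4.33% and 3.56% of all 63105 tested intervals were higher. Their median change was 1.13 (24 h), 2.19 (48 h), 2.24 (72 h) and -0.34 (7 d), so they did not follow the gene count at 7 d. At 7 d 0 of the 17 were lower in IP, while 31.9% of all intervals were.

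In Input 9 of 10 tested intervals of Cacna2d1 were higher at 72 h (26% of all 49912), with a median of 2.04, and 2 of 10 at 7 d (5.26% of all), with a median of 0.36. At 1 h in Input 4 of 10 were lower, where 43% of all intervals were lower. At an L1 interval, chr5:16030694-16030719, the change was 4.06 ± 0.57 at 48 h in IP (adjusted p = 1.97e-07). At an interval without an element name near the end of the span, chr5:16371007-16371032, the change was 1.76 ± 0.26 at 48 h and 2.08 ± 0.25 at 72 h in IP. Both intervals were picked after their values were seen.

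The B2 pair (chr5:16092249-16092274 and chr5:16092319-16092344) differed between libraries of 1 time and did not follow the Cacna2d1 count. At 48 h its first interval had 18.9 and 41.4 CPM in IP replicates 1 and 6, and 2.90 to 4.56 CPM in the other 4. In Input at 48 h the same replicate numbers had 74.6 and 49.7 CPM, and the other 4 had 2.81 to 4.00 CPM. At 24 h the high libraries were IP replicate 3 with 26.5 CPM and Input replicate 5 with 144 CPM. At 12 h the first interval had 1.78 to 17.6 CPM in IP (median 14.01) and 2.15 to 42.7 CPM in Input (median 21.5). At 1 h it had 1.69 to 11.7 CPM in IP (median 1.97) and 0.837 to 35.1 CPM in Input (median 9.52). The highest library of 72 h and 7 d had 5.84 CPM, in Input at 72 h. Naive libraries had 0.957 to 5.30 CPM in IP and 0.766 to 3.98 CPM in Input.

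**Figure D5:**
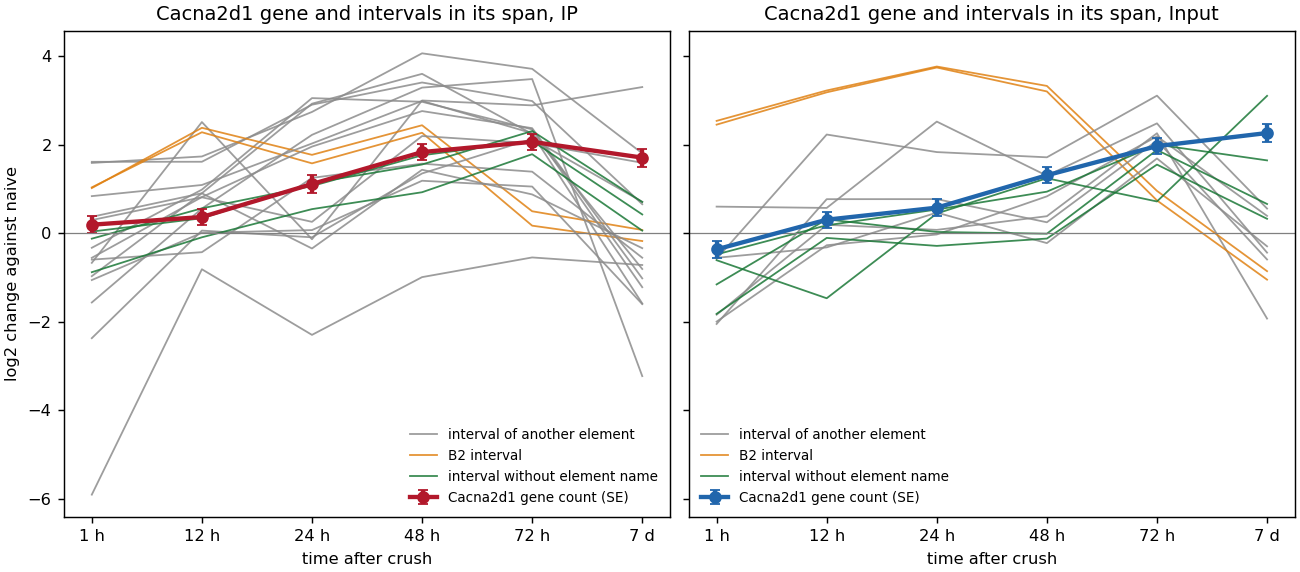
Log2 change against naive libraries for the Cacna2d1 gene count (thick line, bars are the SE) and for each tested interval in its span (thin lines; orange, the B2 pair; green, no element name), in IP (left) and Input (right). Without the B2 pair the intervals have medians of 2.19 at 48 h, 2.24 at 72 h and -0.34 at 7 d in IP, where the gene count has 1.83, 2.06 and 1.71.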

How the data were processed

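RNA was measured in 79 libraries of mouse dorsal root ganglia, 39 IP and 40 Input. Reads were paired, from SMART-Seq v4 cDNA tagged by Nextera XT, per the labels' protocols. The submitters' processing notes name HTSeq, STAR and bcl2fastq 2.17, and as builds mm10 and GRCm38. Versions of the others, strandedness and the handling of reads with several matches were not found in those notes or the labels (not given in the sources used here). Raw counts per gene symbol and per genomic interval were deposited by the authors. Of 24060 symbols, 27 were calendar dates in place of gene names and were not used.

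The 10 genes and all lists were chosen with earlier results of these data known. Counts were fitted with edgeR 4.0.16 (R 4.3.3, TMM scaling, filterByExpr, robust quasi-likelihood) in 3 fits: IP (18656 genes), Input (16217) and all 14 groups (19584), with Benjamini-Hochberg adjustment over all genes of a fit. DESeq2 1.42.0 and limma 3.58.1 voom were alternatives, as were other scaling, no filter, covariates, a replicate block, fits of 2 groups and leaving out libraries. The genes named were all 10 members, up to 4 of each other list by smallest adjusted p in the F-test of the 6 times, and the 5 genes most like Cacna2d1 and Cacnb4. The code was tested on simulated data. Of 192 replicate pairs 0 held the same counts, and the closest pair had a chi-square of 9.53 for each degree of freedom. Intervals were fitted with the library sizes of the gene table. Same-numbered IP and Input libraries deviated together in every pair at 72 h (r = 0.138 to 0.229) and 7 d (0.171 to 0.408), so the block result is given where it changes a call: with it the F-test of the 6 differences passed for Cacnb3 (adjusted p = 0.0162).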

Additional observations from a re-analysis of the deposited data

Results flagged for a closer look

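In 7 of the 140 combinations of gene and group, 1 library stood far from the others of its group by the gap to its nearest neighbour, and chance gives such a gap in about 1 in 20 groups. Cacna1e, a gene of low counts, had 3 of them: 41.4 CPM in IP replicate 3 of 1 h (the others 5.71 to 14.4), 30.7 CPM in IP replicate 5 of 72 h (5.00 to 12.4) and 5.65 CPM in Input replicate 5 of 12 h (0.516 to 2.27). Cacna1h had 24.2 CPM in IP replicate 7 of 72 h (11.1 to 14.1) and 10.7 CPM in Input replicate 5 of 24 h (6.80 to 7.86). Cacna1a had 43.1 CPM in Input replicate 5 of 72 h (19.8 to 29.2), and Cacnb4 had 135 CPM in Input replicate 3 of 24 h (87.2 to 99.3).

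The response of Cacnb3 at 7 d differed between the fractions by a test of the difference itself, with an IP change that exceeded the Input change by 1.10 on the log2 scale (edgeR's quasi-likelihood test, adjusted p = 0.0145). It was the 1 call among the 10 genes at 7 d, where 15.2% of all genes passed the same test, so the count does not set these genes apart. The 7 d difference did not pass without replicate 1 or without replicate 4 (adjusted p up to 0.0914) or with the myelin markers as a covariate (1.00, adjusted p = 0.0505), and the F-test of the 6 differences of Cacnb3 did not pass (adjusted p = 0.0669). That F-test passed in DESeq2 (adjusted p = 0.0448), with the replicate block (0.0162) and with the rRNA share as a covariate (0.0117). It did not pass with the myelin markers as a covariate (0.126) or without replicate 3 (0.135).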

How the results depend on the processing

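Of the tests against naive libraries 7 passed in IP, with 6 to 8 over 12 alternatives and 6 to 8 when 1 library was left out. In Input 15 passed, with 11 to 18 over 11 alternatives and 11 to 18 when 1 library was left out. For IP against Input 58 passed, with 58 to 60 over 10 alternatives and 55 to 58 when 1 replicate number was left out. The count of genes whose IP and Input changes differed was 0, against 1 with RLE scaling, 3 in DESeq2, 2 without the libraries of mostly rRNA and 1 with the rRNA share as a covariate, and 0 to 1 when 1 replicate number was left out (1 without replicate 3); the cause was not tested. With the replicate number as a block the counts were 6 in IP, 14 in Input, 58 for IP against Input and 1 for the differing changes. At the other times the lowest r of a same-numbered IP and Input pair was -0.276 (naive) to 0.00761 (1 h), with medians of 0.0525 to 0.124, against -0.0563 to 0.00857 for pairs of different numbers. Whether the number pairs the samples there is not settled. At 1 h the same numbers had more Ddx3y than Xist in both fractions, and at 48 h the same numbers had a high B2 pair. In naive libraries the Ddx3y and Xist contrast did not go by number. At 24 h replicate 3 had more Ddx3y in Input and more Xist in IP. Replicate 5 of 72 h and replicate 2 of 7 d differed in the same way. Among single genes the block ended the calls of Cacna1e in IP at 7 d (-1.35, adjusted p = 0.101), of Cacnb4 in Input at 12 h (0.35, adjusted p = 0.069) and of Cacna1h for IP against Input in naive libraries (adjusted p = 0.0532), and it added Cacnb3 for IP against Input at 24 h (-0.64, adjusted p = 0.0189). In the fits of IP alone and of Input alone, the block joins libraries of different times by their number. Same-numbered libraries of 7 d and naive in IP had a median r of -0.0200, against 0.00401 for other pairs. Those of 12 h and naive in Input had -0.0120, against 0.0114. In these fits the block is therefore no control for a pairing, and a call that it ends there says nothing of one.

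With the rRNA share as a covariate, chosen after seeing the data, 3 changes at 7 d turned their direction: Cacna1e in IP to 0.61, Cacna1b in Input to 0.94 (-0.19 without it) and Cacnb3 in Input to -0.41. The rRNA share was 2.17 ± 0.462% in Input at 7 d (n = 4) and 13.8 ± 7.21% in naive Input (n = 7), so the share and the group move together. Counts of 3 or 4 reads in the lowest libraries of Cacna1e and Cacna2d2 limit these 2 genes.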
